A study of Homo sapiens with 12 samples.

Results

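EGFR, MET, the EGFR relatives ERBB2 and ERBB3, the EGFR ligands TGFA, AREG, EREG and HBEGF, and the receptor inhibitor ERRFI1 were examined in RCC4 cells, which derive from a human clear cell renal carcinoma. These 9 genes were taken by symbol from the 60663 Ensembl genes of the count table, and all 9 were found there. RNA-seq libraries were made from 4 groups of 3. RCC4 VHL- cells have lost VHL. Its product marks the hypoxia-inducible factors (HIF) for degradation. RCC4 VHL+ cells are the same line with VHL put back. Each line received DMSO, the solvent, or 5 µM JQ1, an inhibitor of BET bromodomain proteins that the labels describe as inhibiting MYC. The labels' protocols also mention lentiviral hairpins against MYC, and none of the 12 libraries is labelled with one. The labels give neither the time of treatment, nor the promoter of the VHL construct, nor whether either line is a single clone, nor whether replicates were separate cultures. The p-values therefore measure only the spread between these libraries, which may be technical. Levels are CPM (counts scaled to library size with TMM factors), given with the SD over n = 3 libraries. Fold changes come from edgeR's quasi-likelihood test fitted to all 12 libraries, and genes were called at a Benjamini-Hochberg adjusted p under 0.05 over 20714 genes tested. Levels of different genes were compared only per kilobase of merged exon length.

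EGFR is the receptor tyrosine kinase that founds the ERBB family. Its ligands are made as membrane-bound precursors, cut from the surface by ADAM proteases, and drive receptors into pairs that signal through RAS and PI3K. ERBB2 has no known ligand of its own and ERBB3 has little kinase activity, so both act as partners. ERRFI1 encodes MIG6, a protein induced by receptor signalling that binds the EGFR kinase and blocks it. MET is the receptor of hepatocyte growth factor, HGF. In clear cell renal carcinoma TGFA is known as a gene raised by HIF, in particular by HIF-2alpha, and EGFR and MET are present in tubular epithelium.

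The libraries held 15452949 to 32502310 counts. VHL RNA was lower in the VHL- libraries (26.4 ± 1.64 against 70.3 ± 7.62 CPM under DMSO and 32.7 ± 2.39 against 212 ± 14 CPM under JQ1), as the labels have it. The VHL level itself was thus higher with JQ1 in VHL+ cells, and its part in the results there was not tested. CA9, which HIF induces, measured 75.8 to 97.8 CPM in VHL- cells under DMSO and at most 0.946 CPM in VHL+ libraries. With JQ1 it fell in VHL- cells to 24.1 to 34.2 CPM (log2 -1.57, adjusted p = 0.000269). NDUFA4L2 and VIM, listed with CA9 as clear cell carcinoma markers, were not called there (log2 0.44 and -0.04). Of 7 renal epithelial markers 6 passed the filter, and LRP2, a proximal tubule marker, did not exceed 0.365 CPM. Their summed level was lower in VHL- than in VHL+ libraries, at 643 to 781 against 1330 to 1530 CPM under DMSO and 948 to 966 against 1380 to 1610 CPM under JQ1. Under DMSO 5 of the 6 were called lower in VHL- cells, CDH16 12.2-fold, CDH6 5.78-fold, KRT18 1.97-fold, PAX2 1.73-fold and KRT8 1.58-fold, and PAX8 was not (log2 0.14, adjusted p = 0.636). Of all genes tested, 15.9% were called lower in that comparison. The summed level of the renal markers thus moved with both comparisons of the lines. Summed levels of 5 markers each were 2.71 to 10.2 CPM for endothelial cells, 0.752 to 4.36 CPM for leukocytes and 0.801 to 10.8 CPM for fibroblasts. The fibroblast sum was highest in VHL- DMSO libraries (8.07 to 10.8 CPM, mostly PDGFRB), and DCN was at 0 in 3 of the 4 groups. The part of these transcripts in the results below was not tested. In bulk RNA, fewer cells of a kind and less RNA per cell cannot be told apart. Replicate 2 of the VHL+ DMSO libraries stood apart from its fellows for several of the 9 genes, with the highest AREG, TGFA, ERRFI1 and MET and the lowest ERBB2 and ERBB3 of its group. Its EGFR (653 CPM) was close to that of replicate 1 (666 CPM). Called changes of TGFA, AREG, BTC, ERRFI1, ERBB2 and ERBB3 that use replicate 2 are given without it as well.

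Per length, MET and EGFR were the most abundant of the 9 genes in all 4 groups. MET stood at 65.0 to 91.8 CPM per kilobase (group means) and EGFR at 56.9 to 78.7. TGFA (16.3 to 33.9), HBEGF (13.2 to 28.0) and ERRFI1 (10.8 to 20.7) followed, then ERBB2 (7.56 to 9.90). AREG lay between 0.129 and 3.38 CPM per kilobase, ERBB3 between 0.0588 and 0.161, and EREG between 0.00213 and 0.0243. Per length, MET exceeded EGFR in 10 of the 12 libraries, the exceptions being replicates 2 and 3 of VHL- JQ1. This order rests on the merged exon lengths, 7039 bases for MET and 12521 for EGFR. The lengths of the transcripts present were not tested. In CPM without regard to length, EGFR had the higher mean in all 4 groups, for example 713 against 629 in VHL+ DMSO and 803 against 458 in VHL- JQ1 libraries. Several neighbours in this order differed by less than 1 SD of either or both. In VHL- JQ1 cells these were MET (65.0 ± 15.5) and EGFR (64.1 ± 2.75), and AREG and ERBB3. In VHL+ JQ1 cells they were ERRFI1 and ERBB2. In VHL+ DMSO cells ERRFI1 (11.3 ± 5.42) lay within 1 of its SDs of both ERBB2 and TGFA. Among the genes tested, ranked by CPM without regard to length, EGFR had percentile 99.7 and MET 99.5, and ERBB3 and AREG had 29.7 and 28.1. Of the 9 genes 8 passed the filter on low counts, and EREG did not.

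**Figure D1:**
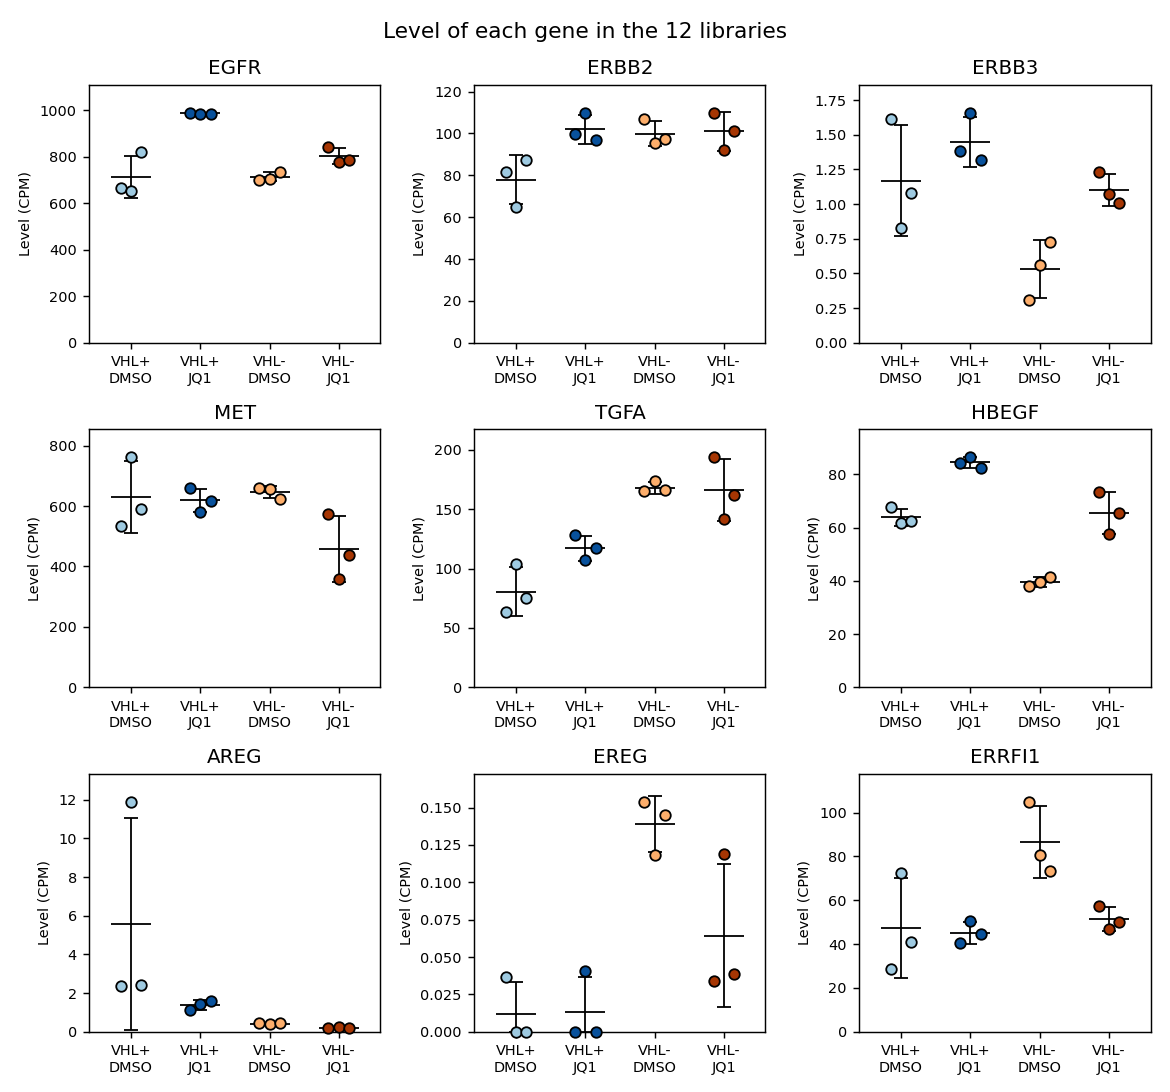
Level of each of the 9 genes (CPM, linear axis from 0, one scale per panel) in the 12 libraries. Points are libraries, horizontal bars are group means and error bars are SDs cut off at 0 (n = 3 per group). EGFR is highest in the 3 VHL+ JQ1 libraries (982 to 990 CPM), TGFA is higher in all VHL- than in all VHL+ libraries, and 1 VHL+ DMSO library stands apart for AREG (11.9 CPM).

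Among the receptors, JQ1 raised EGFR and ERBB2 RNA modestly in VHL+ cells and lowered MET RNA in VHL- cells. EGFR (ENSG00000146648, GRCh38 chromosome 7, 55019021 to 55211628) measured 666, 653 and 819 CPM in the VHL+ DMSO libraries and 990, 982 and 984 CPM with JQ1. Every treated library lay above every control. The rise was 1.38-fold (log2 0.47, SE 0.131, adjusted p = 0.0124). In VHL- cells EGFR measured 701, 705 and 735 CPM under DMSO and 842, 779 and 786 CPM with JQ1. These libraries did not overlap either, but the change did not pass (log2 0.17, 95% interval -0.11 to 0.45, adjusted p = 0.342). Both lines had the same mean EGFR level under DMSO, 713 ± 92.1 CPM in VHL+ and 714 ± 18.4 CPM in VHL- cells (log2 0.00, 95% interval -0.28 to 0.28). Under JQ1 the VHL- libraries were all below the VHL+ ones (log2 -0.30, adjusted p = 0.0818), and with the replicate number as a block in a fit of the JQ1 groups EGFR was called lower (log2 -0.29, adjusted p = 0.0381). The EGFR rise in VHL+ cells lost its call when libraries were scaled by total counts alone (log2 0.35, adjusted p = 0.0854), with no filter on low counts (adjusted p = 0.0589) and when replicate 3 of JQ1 was dropped in each line (adjusted p = 0.0688). DESeq2 (adjusted p = 0.0233), limma-voom (0.0479), a fit of only the JQ1 groups (0.04) and a fit without replicate 1 of the VHL- JQ1 libraries (0.048) called EGFR lower in VHL- cells under JQ1.

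MET (ENSG00000105976, chromosome 7, 116672390 to 116798386) measured 659, 657 and 623 CPM in VHL- cells under DMSO and 575, 359 and 439 CPM with JQ1. The treated libraries all lay below the controls and spread widely, with replicate 1 nearest to the controls. MET fell 1.41-fold (log2 -0.50, SE 0.172, adjusted p = 0.0372). In VHL+ cells it measured 535, 762 and 590 CPM under DMSO and 658, 581 and 617 CPM with JQ1, and the groups overlapped (log2 -0.02, 95% interval -0.39 to 0.34). MET differed by log2 0.04 between the lines under DMSO (95% interval -0.32 to 0.40). Under JQ1 it measured log2 -0.43 in VHL- against VHL+ cells (adjusted p = 0.054), with no overlap between the libraries. DESeq2 (adjusted p = 0.0348), limma-voom (0.0338) and a fit of only the JQ1 groups (0.045, or 0.0104 with the replicate block) called it lower, as did fits without replicate 1 of VHL- JQ1 (log2 -0.65, adjusted p = 0.00472), replicate 3 of VHL- DMSO (0.0454), or replicate 1 (0.0421) or 2 (0.0347) of VHL+ DMSO. The fall of MET in VHL- cells lost its call in 8 of the 12 fits that each left out 1 library. These were the fits without replicate 1, 2 or 3 of VHL+ JQ1, replicate 3 of VHL+ DMSO, replicate 1 or 2 of VHL- DMSO, and replicate 2 or 3 of VHL- JQ1, with log2 -0.51 to -0.34 and adjusted p from 0.0516 to 0.173.

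ERBB2 (ENSG00000141736, chromosome 17, 39687914 to 39730426) measured 81.6, 64.9 and 87.5 CPM in VHL+ DMSO libraries and 99.8, 110 and 96.8 CPM with JQ1. The groups did not overlap, and ERBB2 rose 1.31-fold (log2 0.39, SE 0.131, adjusted p = 0.0332). In VHL- cells it stayed near 100 CPM, with 99.9 ± 6.06 CPM under DMSO and 101 ± 9.16 CPM with JQ1 (log2 0.02, 95% interval -0.26 to 0.30). Under DMSO ERBB2 was log2 0.36 higher in VHL- cells, which fell short of the threshold (adjusted p = 0.0504). It passed with DESeq2 (adjusted p = 0.0346), limma-voom (0.0415), total counts alone (0.0353), median-of-ratios scaling (0.0492) and a filter of 1 CPM (0.0413). It also passed without replicate 3 of VHL+ DMSO (0.0463) or replicate 1 (0.0339) or 2 (0.0364) of VHL- JQ1. The remaining fits did not call it. Without replicate 2 of VHL+ DMSO this difference between the lines was log2 0.25 (adjusted p = 0.179). The rise in VHL+ cells had an adjusted p of 0.162 with total counts alone (log2 0.27), 0.122 with no filter on low counts and 0.051 in a fit of only these groups. It also lost its call without replicate 2 of the DMSO libraries (log2 0.29, adjusted p = 0.124) and without replicate 1, 2 or 3 of the JQ1 libraries (adjusted p = 0.0695, 0.12 and 0.0564). Of the merged ERBB2 exons, 7.41% overlap MIEN1 and PGAP3 on the opposite strand, and the sources used here do not give the strand setting of the counting. Such overlap is 3.7% for ERRFI1 and 1.49% for EGFR.

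ERBB3 (ENSG00000065361, chromosome 12, 56076799 to 56103505) was scarce, at 8 to 44 counts per library. In VHL- cells it measured 0.308, 0.562 and 0.724 CPM under DMSO and 1.23, 1.07 and 1.01 CPM with JQ1. The groups did not overlap, and ERBB3 rose 2.06-fold (log2 1.04, SE 0.347, adjusted p = 0.0307). Under DMSO it was 2.18-fold lower in VHL- than in VHL+ cells (log2 -1.13, SE 0.34, adjusted p = 0.019), where it measured 1.61, 0.826 and 1.08 CPM. Both comparisons use the same 3 VHL- DMSO libraries. Without replicate 1 of these, which holds 8 counts, the rise with JQ1 was log2 0.79 (adjusted p = 0.122) and the difference between lines log2 -0.87 (adjusted p = 0.0817). The rise also lost its call without replicate 2 of VHL- DMSO (adjusted p = 0.0683) or replicate 1, 2 or 3 of VHL- JQ1 (0.0715, 0.0516 and 0.0584), and the difference between lines without replicate 1 of VHL+ DMSO (log2 -0.84, adjusted p = 0.103). Without replicate 2 of VHL+ DMSO the difference between lines was log2 -1.31 (adjusted p = 0.00996). When replicate 1 of DMSO was dropped in each line, it was log2 -0.59 (adjusted p = 0.254). It also lost its call in a fit of only the compared groups (log2 -1.15, adjusted p = 0.052).

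Because both receptors are counted in the same library, their ratio does not depend on how libraries are scaled. Its height does depend on the exon lengths used, which are the same for every library. EGFR over MET, per length, was 0.701, 0.482 and 0.781 in VHL+ DMSO libraries and 0.845, 0.951 and 0.897 with JQ1. In VHL- cells it was 0.598, 0.603 and 0.664 under DMSO and 0.824, 1.22 and 1.01 with JQ1. The ratio was higher in every JQ1 library than in every DMSO library of its line. With 3 libraries against 3, an exact permutation test cannot give a two-sided p below 0.1. EGFR RNA per length was 5.42 to 8.38 times that of ERBB2 in the 12 libraries.

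Among the ligands, TGFA (ENSG00000163235, chromosome 2, 70447280 to 70554193), which encodes TGF-alpha, was higher in VHL- cells, and HBEGF (ENSG00000113070, chromosome 5, 140332843 to 140346631), which encodes heparin-binding EGF-like growth factor, and AREG (ENSG00000109321, chromosome 4, 74445134 to 74455009), which encodes amphiregulin, were lower. The 250 bases before the RefSeq start (GRCh38.p14) of these 3 ligands are shown because all 3 differed between the lines under both treatments. They are written 5′ to 3′ along the gene, at chr2:70553827-70554076 (minus strand), chr5:140346604-140346853 (minus strand) and chr4:74444886-74445135 (plus strand). The gene spans given above are from GENCODE, which places the TGFA start further upstream than RefSeq does. The whole TGFA window thus lies inside the GENCODE span of TGFA, whose 5′ end is 70554193. The HBEGF and AREG windows overlap the 5′ ends of their spans. Capitals mark matches, on either strand, to motifs searched in all promoters of the table.
TGFA: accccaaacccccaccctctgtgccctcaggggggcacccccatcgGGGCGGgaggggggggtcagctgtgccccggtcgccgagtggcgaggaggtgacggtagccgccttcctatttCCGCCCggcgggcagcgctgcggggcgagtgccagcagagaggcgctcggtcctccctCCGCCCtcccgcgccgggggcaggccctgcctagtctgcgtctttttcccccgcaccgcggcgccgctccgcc
HBEGF: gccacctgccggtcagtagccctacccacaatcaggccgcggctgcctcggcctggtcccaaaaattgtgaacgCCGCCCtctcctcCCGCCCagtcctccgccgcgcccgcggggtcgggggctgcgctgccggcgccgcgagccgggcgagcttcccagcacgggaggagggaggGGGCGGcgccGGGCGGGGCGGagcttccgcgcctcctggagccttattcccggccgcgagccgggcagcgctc
AREG: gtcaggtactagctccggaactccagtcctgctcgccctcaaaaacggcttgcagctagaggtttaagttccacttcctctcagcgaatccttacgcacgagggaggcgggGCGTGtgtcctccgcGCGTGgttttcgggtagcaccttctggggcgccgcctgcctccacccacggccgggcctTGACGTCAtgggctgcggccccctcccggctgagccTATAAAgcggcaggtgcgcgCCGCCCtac

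Promoters of 8 of the 9 genes were in the RefSeq table, all but that of ERBB3. The motifs searched were the core of the hypoxia response element (ACGTG or GCGTG), the E-box CACGTG that MYC and MAX bind (which contains ACGTG), the AP-1 site TGANTCA, the cAMP response element TGACGTCA, the GC box GGGCGG and the TATA box TATAAA. The TGFA window held 3 GC boxes and the HBEGF window 5, and neither held another motif. Of 35116 promoter windows of this length, 42.6% hold a GC box and 43.2% either hypoxia core. The AREG window held 2 GCGTG cores, 139 and 124 bases before the start, and a cAMP response element at 65 bases, which 1.65% of all windows hold. It also held a TATA box 29 bases and a GC box 9 bases before the start. EREG, its neighbour on chromosome 4, had a TATA box at 32 bases, which 10.7% of windows hold, and 1 GCGTG core. A match is only a run of letters in this window, and absence of one says nothing about binding elsewhere.

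TGFA measured 63.2, 104 and 75.3 CPM in VHL+ and 165, 174 and 166 CPM in VHL- libraries under DMSO. Every VHL- library lay above every VHL+ library, and TGFA was 2.08-fold higher (log2 1.06, SE 0.167, adjusted p = 0.000139). JQ1 raised it 1.45-fold in VHL+ cells, to 128, 107 and 117 CPM (log2 0.54, SE 0.166, adjusted p = 0.0215). Without replicate 2 of the VHL+ DMSO libraries the difference between the lines was log2 1.29 (adjusted p = 1.39e-05) and the rise with JQ1 log2 0.78 (adjusted p = 0.00189). In VHL- cells it measured 194, 142 and 162 CPM with JQ1, on both sides of the controls (log2 -0.02, 95% interval -0.37 to 0.33). Under JQ1 the lines still differed 1.42-fold (log2 0.50, adjusted p = 0.0238), again with no overlap. The rise in VHL+ cells lost its call without replicate 1 (log2 0.39, adjusted p = 0.098) or 3 (log2 0.50, adjusted p = 0.0791) of the DMSO libraries and without replicate 1 (0.0892) or 3 (0.0577) of the JQ1 libraries. The difference under JQ1 lost its call without replicate 2 (log2 0.43, adjusted p = 0.108) or 3 (0.08) of VHL+ JQ1 and replicate 1 (log2 0.36, adjusted p = 0.102) or 3 (0.0586) of VHL- JQ1.

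HBEGF moved with JQ1 in the same direction in both lines. In VHL- cells it measured 37.9, 39.6 and 41.6 CPM under DMSO and 73.5, 57.6 and 65.4 CPM with JQ1. The groups were far apart, and the rise was 1.65-fold (log2 0.72, SE 0.118, adjusted p = 0.000243). In VHL+ cells HBEGF measured 67.7, 61.6 and 62.6 CPM under DMSO and 84.4, 86.5 and 82.5 CPM with JQ1, a rise of 1.32-fold (log2 0.40, SE 0.117, adjusted p = 0.0157) with no overlap. Under DMSO it was 1.61-fold lower in VHL- than in VHL+ cells (log2 -0.69, SE 0.118, adjusted p = 0.000312), and under JQ1 1.29-fold lower (log2 -0.37, SE 0.118, adjusted p = 0.0209). With total counts alone the rise in VHL+ cells was log2 0.29 (adjusted p = 0.126) and the difference under JQ1 log2 -0.21 (adjusted p = 0.228), and neither was called. Nor were they with no filter on low counts (0.102 and 0.0866) or when replicate 3 of JQ1 was dropped in each line (0.0709 and 0.133). The rise in VHL+ cells also lost its call without replicate 3 of DMSO (adjusted p = 0.0563) or replicate 1 (0.0514) or 2 (0.0583) of JQ1. The difference under JQ1 did so without replicate 1, 2 or 3 of VHL+ JQ1 (0.0621, 0.0701 and 0.0514) and replicate 2 (log2 -0.28, adjusted p = 0.0975) or 3 (0.0772) of VHL- JQ1.

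The order of these 2 ligands per length differed between the lines. Per length, TGFA over HBEGF was 0.568, 1.02 and 0.732 in VHL+ DMSO libraries and 0.92, 0.749 and 0.863 in VHL+ JQ1 libraries. In VHL- cells it was 2.65, 2.68 and 2.42 under DMSO and 1.61, 1.5 and 1.5 under JQ1. Per length, TGFA was thus the more abundant transcript in all 6 VHL- libraries and HBEGF in 5 of 6 VHL+ libraries. This order rests on the merged exon lengths, 4963 bases for TGFA and 3018 for HBEGF. The lengths of the transcripts present were not tested. In CPM without regard to length, TGFA had the higher mean in VHL+ cells too (80.7 against 63.9 under DMSO and 117 against 84.5 with JQ1). Within VHL- cells the ratio was lower in every JQ1 library than in every DMSO library, and in VHL+ cells the groups overlapped.

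**Figure D2:**
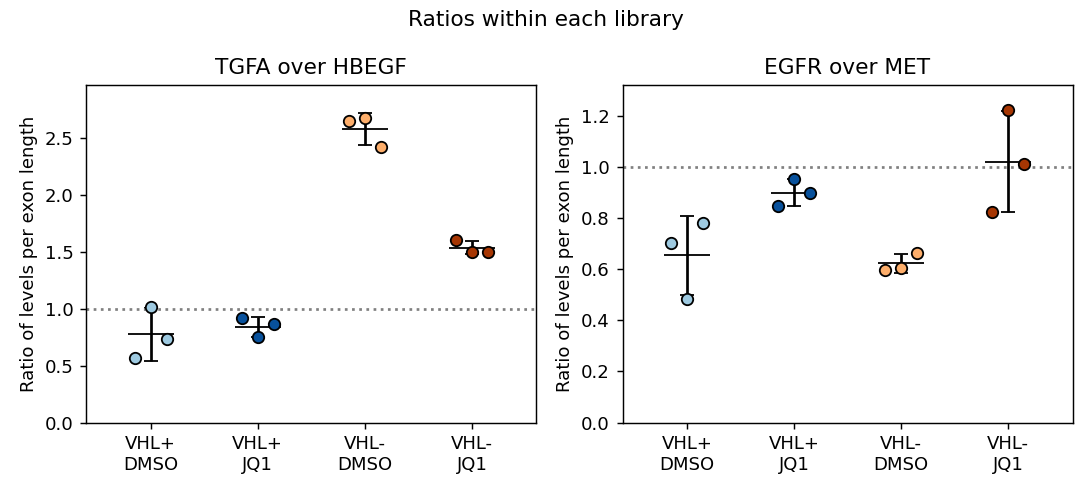
Ratios of 2 transcripts within each library, per merged exon length (linear axis from 0, dotted line at 1), for TGFA over HBEGF (left) and EGFR over MET (right). Points are libraries, bars are means with SD (n = 3 per group). TGFA over HBEGF is 1.5 to 2.68 in VHL- and 0.568 to 1.02 in VHL+ libraries, and EGFR over MET is higher with JQ1 than with DMSO in both lines.

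AREG was lower in VHL- than in VHL+ cells under both treatments, and it was scarce throughout. Its VHL+ DMSO libraries held 65, 302 and 81 counts (2.37, 11.9 and 2.44 CPM), so that replicate 2 held most of the group's AREG. With JQ1 they held 31, 35 and 28 counts (1.13, 1.42 and 1.61 CPM). VHL- libraries held 12, 13 and 12 counts under DMSO (0.463, 0.385 and 0.434 CPM) and 6, 4 and 5 counts with JQ1. Under DMSO AREG was 12.9-fold lower in VHL- cells (log2 -3.69, SE 0.552, adjusted p = 8.33e-05), and under JQ1 6.42-fold lower (log2 -2.68, SE 0.686, adjusted p = 0.00554). JQ1 lowered AREG 4.02-fold in VHL+ cells (log2 -2.01, SE 0.492, adjusted p = 0.00546). Without replicate 2 of the VHL+ DMSO libraries this fall was log2 -0.79 (adjusted p = 0.0401) and the difference between the lines under DMSO log2 -2.48 (adjusted p = 8.27e-06). In VHL- cells AREG measured log2 -1.0 with JQ1 (95% interval -2.64 to 0.64, adjusted p = 0.341), and without that same VHL+ library, which changes the shared estimate of spread, log2 -1.01 had an adjusted p of 0.049.

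EREG (ENSG00000124882, chromosome 4, 74365143 to 74388751), which encodes epiregulin, was close to absent. No library held more than 4 counts. The 3 VHL- DMSO libraries held 4 counts each, the VHL- JQ1 libraries 4 in all, and each VHL+ group 1 in all. Under DMSO the VHL- libraries, at 4 counts each, did not overlap the VHL+ libraries, at 1, 0 and 0. With no filter on low counts edgeR gave a log2 fold change of 3.15 for EREG there, which depends on the prior count, with an unadjusted p of 0.0255 and an adjusted p of 0.143, and the difference did not pass. Of the genes beside AREG and EREG, EPGN (epigen) reached at most 5 counts. BTC, which encodes betacellulin, measured 3.95, 6.69 and 3.91 CPM in VHL+ DMSO libraries and 1.27, 0.858 and 0.796 CPM in VHL- DMSO libraries. BTC was thus 4.97-fold lower in VHL- cells (log2 -2.31, SE 0.277, adjusted p = 8.13e-06), and it fell with JQ1 in VHL+ cells to 2.11, 2.23 and 2.07 CPM (log2 -1.18, adjusted p = 0.00286). As for AREG, replicate 2 of the VHL+ DMSO libraries held the highest BTC level. Without it the BTC difference was log2 -2.01 (adjusted p = 2.25e-05) and the fall log2 -0.86 (adjusted p = 0.0189).

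The inhibitor ERRFI1 (ENSG00000116285, chromosome 1, 8004404 to 8026308) had its highest group mean in VHL- cells without JQ1. It measured 105, 80.8 and 73.5 CPM in VHL- DMSO libraries and 57.2, 46.8 and 50.1 CPM in VHL- JQ1 libraries. The groups did not overlap, and ERRFI1 fell 1.68-fold (log2 -0.75, SE 0.244, adjusted p = 0.0276). In VHL+ cells it measured 28.6, 72.5 and 40.8 CPM under DMSO and 40.4, 50.6 and 44.4 CPM with JQ1 (log2 -0.07, 95% interval -0.58 to 0.45). Under DMSO ERRFI1 was 1.83-fold higher in VHL- cells (log2 0.87, SE 0.244, adjusted p = 0.0123), where the lowest VHL- library, 73.5 CPM, lay just above the highest VHL+ library. Both called comparisons share the VHL- DMSO libraries. Without replicate 1 of these the fall was log2 -0.59 (adjusted p = 0.119) and the difference log2 0.71 (adjusted p = 0.0573). The fall also lost its call without replicate 2 (log2 -0.67, adjusted p = 0.0916) or 3 (0.0889) of VHL- JQ1, and the difference without replicate 3 of VHL+ DMSO (log2 0.77, adjusted p = 0.0631) and when replicate 1 of DMSO was dropped in each line (log2 0.45, adjusted p = 0.149). Without replicate 2 of the VHL+ DMSO libraries the difference was log2 1.33 (adjusted p = 6.54e-05), and JQ1 against DMSO in VHL+ cells log2 0.40 (adjusted p = 0.131).

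**Figure D3:**
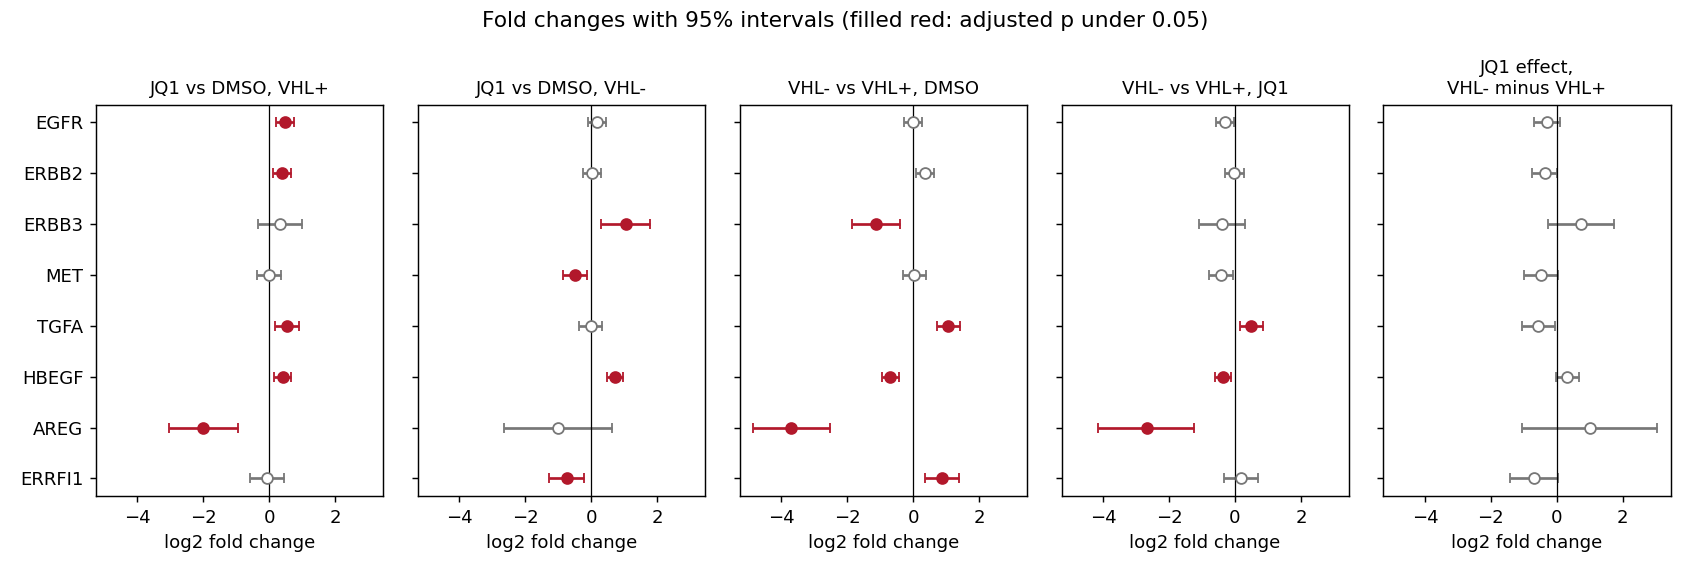
Log2 fold changes of the 8 tested genes in the 5 comparisons, with 95% intervals from the edgeR fit (linear axis). Filled red points passed an adjusted p under 0.05 and open grey points did not. TGFA lies above 0 and HBEGF and AREG below 0 in both comparisons of the lines, and no gene passed for the difference between both JQ1 effects.

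Counted by comparison, 4 of the 8 tested genes rose and 1 fell with JQ1 in VHL+ cells, where 15.3% of all genes were called higher and 16.5% lower. The 4 were EGFR, ERBB2, TGFA and HBEGF, and the median over the 8 was log2 0.35 against -0.03 over all genes. With JQ1 in VHL- cells 2 rose and 2 fell, against 14.6% and 17.5% of all genes, and the median was log2 0.00 against 0.03. Between the lines under DMSO 2 were higher and 3 lower in VHL- cells, against 14.8% and 15.9% of all genes. Under JQ1 1 was higher and 2 lower, against 19.7% and 21.2%. In either direction 31.8%, 32.1%, 30.7% and 40.9% of all genes were called in these 4 comparisons, which share groups of libraries. In all, 17 changes of these genes were called, and 7 of them kept their call in every one of the 12 fits that left out 1 library. Those 7 were AREG in 3 comparisons, EGFR with JQ1 in VHL+ cells, HBEGF with JQ1 in VHL- cells, and HBEGF and TGFA between the lines under DMSO. Total counts alone moved the median of all genes by log2 -0.11 for JQ1 in VHL+ cells and left 1 of the 4 rises called, that of TGFA. Of all 20714 genes it called 2069 higher there, against 3167 in the main fit. The authors' deposited tables compare JQ1 with DMSO. In them, 5 of the 9 genes had an adjusted p under 0.05 in VHL+ cells and 4 in VHL- cells. They were the same 5 and 4 genes as called here, in the same directions. Those tables were deposited with these same libraries, so the match is no independent check.

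Whether the JQ1 effect itself differed between the lines was tested as an interaction, and 0 of the 8 genes passed in edgeR, where 1.21% of all genes were called. At an unadjusted p under 0.05 there was 1, TGFA (log2 -0.56, SE 0.234, adjusted p = 0.183). DESeq2 and limma-voom also called 0, with 1 and 3 genes at an unadjusted p under 0.05. MET gave log2 -0.47 (95% interval -0.99 to 0.04) and ERRFI1 log2 -0.68 (95% interval -1.41 to 0.05). EGFR gave log2 -0.30 and ERBB2 log2 -0.37, with adjusted p of 0.344 and 0.247. A rise called in one line and not in the other is therefore not shown to differ between them. Without replicate 1 of VHL- JQ1 the differences of MET (log2 -0.70, adjusted p = 0.0409) and TGFA (log2 -0.71, adjusted p = 0.0487) passed, and without replicate 2 of VHL+ DMSO that of ERRFI1 (log2 -1.15, adjusted p = 0.0314). The first of these fits called 1301 of 21706 genes higher and 2209 lower for the difference. The second called 134 of 21888 genes higher and 211 lower, and the main fit 103 of 20714 higher and 147 lower.

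Of 46 other genes of ERBB and MET signalling, 37 were tested. Among the 9 that failed the filter were ERBB4, the remaining ERBB receptor (at most 10 counts in a library), and HGF, the MET ligand (at most 3 counts). HGFAC, an activator of HGF, and SPINT1, an inhibitor of proteases that activate HGF, failed it too. With JQ1 11 of the 37 rose and 5 fell in VHL+ cells (median log2 0.03), where 15.3% of all genes were called higher and 16.5% lower. In VHL- cells 7 rose and 8 fell (median log2 -0.01), against 14.6% and 17.5% of all genes. NRG1, which encodes neuregulin, a ligand of ERBB3, fell in both lines, from 189, 196 and 177 to 107, 98.4 and 97.2 CPM in VHL+ cells (log2 -0.90, SE 0.115, adjusted p = 3.24e-05) and from 170 ± 12.3 to 102 ± 6.55 CPM in VHL- cells (log2 -0.74, adjusted p = 0.000156). RHBDF1, an inactive rhomboid that governs ADAM17, rose from 19.3 to 45.3 CPM in VHL+ cells (log2 1.23, adjusted p = 5.38e-05) and from 13.2 to 22.5 CPM in VHL- cells (log2 0.78, adjusted p = 0.00242). SOCS4, an attenuator of EGFR, fell in VHL+ cells (log2 -0.86, adjusted p = 0.000404). In VHL- cells LRIG3 fell (log2 -0.81, adjusted p = 0.000134) and LRIG1, a membrane protein that promotes loss of ERBB receptors, rose (log2 0.97, adjusted p = 0.000357). Total counts alone called 9 genes lower instead of 5 in VHL+ cells, and 3998 instead of 3422 of all 20714 genes.

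Between the lines under DMSO 4 of the 37 were higher and 11 lower in VHL- cells (median log2 -0.05 against 0.00 over all genes), where 14.8% of all genes were called higher and 15.9% lower. Under JQ1 4 were higher and 15 lower (median log2 -0.30 against 0.03), where the shares of all genes were 19.7% and 21.2%. Among the lower genes EGF and NRG2, named here after their values were seen, held at most 3 and 8 counts in a VHL- library and passed the filter on low counts through the VHL+ groups. SPINT2, which encodes an inhibitor of the proteases that activate HGF, measured 103, 69.6 and 80.5 CPM in VHL+ and 16.2, 15.5 and 17.6 CPM in VHL- libraries under DMSO. It was 5.14-fold lower in VHL- cells (log2 -2.36, SE 0.153, adjusted p = 5.31e-09), and 7.38-fold lower under JQ1 (log2 -2.88, SE 0.158, adjusted p = 8.7e-10). LRIG1 was 3.83-fold lower under DMSO (log2 -1.94, adjusted p = 1.29e-07) and 2.56-fold lower under JQ1 (log2 -1.36, adjusted p = 5.45e-06). Of its merged exons, 12.9% overlap SLC25A26 on the opposite strand, and 4.65% of those of SPINT2 overlap AC011479.1. RNF41, a ubiquitin ligase of ERBB3, was lower under JQ1 (log2 -0.82, adjusted p = 0.000178). With total counts alone, 7 genes were higher and 8 lower under JQ1. Over all 20714 genes that setting called 5152 higher and 3148 lower, against 4082 and 4397 in the main fit. None of the 37 passed for the difference between JQ1 effects in edgeR, where SOCS4 (log2 0.69, adjusted p = 0.0922), CBLB (log2 -0.56, adjusted p = 0.12) and GAB2 (log2 -0.60, adjusted p = 0.12) had the smallest p. DESeq2 called SOCS4 (adjusted p = 0.0473), and without replicate 1 of VHL- JQ1 edgeR called SOCS4 (0.0395), CBLB (0.0477) and GAB2 (0.0282). That edgeR fit called 3510 genes in all for this difference, against 250 in the main fit. Without replicate 3 of VHL+ DMSO 7 genes instead of 11 were lower under DMSO, and without replicate 2 of VHL- DMSO 2 instead of 4 were higher. Of all genes, the former fit called 2725 of 21654 lower and the latter 2502 of 21615 higher. The main fit called 3299 of 20714 lower and 3058 higher.

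**Figure D4:**
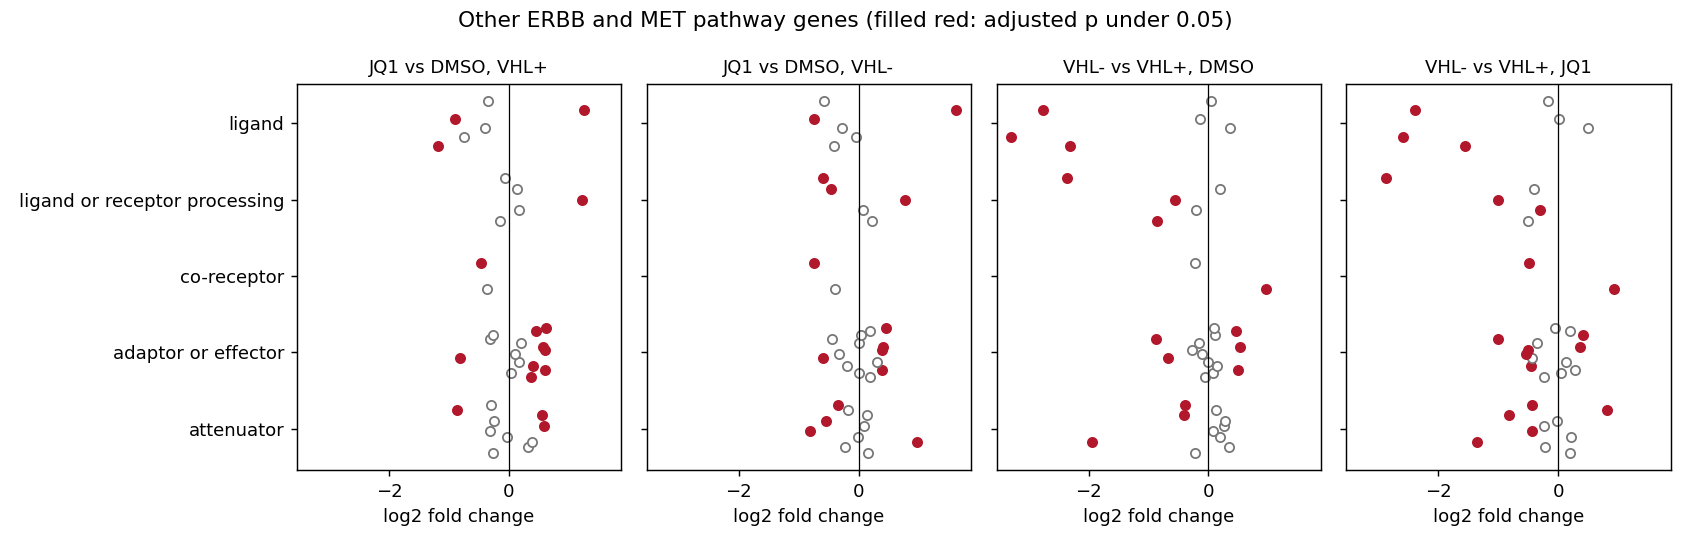
Log2 fold changes of 37 other ERBB and MET pathway genes, by role, in 4 comparisons (linear axis; each point is a gene, spread vertically only for visibility). Filled red points passed an adjusted p under 0.05. In VHL- against VHL+ cells 11 genes are lower and 4 higher under DMSO, with SPINT2 at log2 -2.36.

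EGFR and MET were each compared over the 12 libraries with 8044 other genes whose mean log2 CPM reached 4. Genes without a symbol or with a placeholder name (such as LOC, LINC or clone names) were left out. The log2 CPM of EGFR was followed most closely by NADSYN1 (Pearson r = 0.969), ZNF28 (0.968) and AGFG2 (0.959). NADSYN1, an enzyme of NAD synthesis, had group means of 72.7 and 109 CPM in VHL+ cells and 69.5 and 78.5 CPM in VHL- cells without and with JQ1. Like EGFR, it was highest with JQ1 in VHL+ cells. MET was followed most closely by POLR1B, a subunit of RNA polymerase I (0.977), ZPR1 (0.969) and CAPZA1, an actin capping subunit (0.967). POLR1B had group means of 113, 100 and 117 CPM and was lowest, at 77.2 CPM, in VHL- cells with JQ1. These values describe 12 libraries that share their groups and depth. With total counts alone the r of EGFR with AGFG2 was 0.825.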

How the data were processed

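Total RNA was depleted of ribosomal RNA, per the labels' protocols. The submitters' processing notes name build GRCh38, DESeq2 1.30.1, featureCounts, Subread 2.0.3 and STAR 2.7.8. The deposited count table holds raw counts per Ensembl gene. The authors' deposited tables, which compare JQ1 with DMSO, give log2 fold changes with standard errors, a score (fold change over its error), p-values and a further (other) value, the mean of scaled counts. The counts were tested with edgeR 4.0.16 under R 4.3.3 (TMM scaling, filter by group, quasi-likelihood fit of 1 mean per group, tested on simulated data), with DESeq2 1.42.0 and limma 3.58.1 as alternatives. Positions and merged exon lengths came from GENCODE 29 (GRCh38). Intervals are the fold change ± the t quantile times its SE. Log2 CPM used a prior count of 2. Members and lists were chosen with earlier results of these data known. Named genes were the 9 members, VHL, in each comparison the 3 listed pathway genes with the smallest p, the 3 best correlated with EGFR and MET, and the neighbours EPGN and BTC. Replicate numbers were checked for pairing by correlating deviations from group means. Under JQ1 the same-numbered libraries of the lines correlated at 0.155 to 0.481 and the others at -0.468 to 0.207, so that comparison was also fitted with the number as a block. The labels do not say what a number marks.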

Additional observations from a re-analysis of the deposited data

How the results depend on the processing

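No alternative reversed a called change of the 9 genes. Of 17 called changes, 6 kept their call under every alternative, the stricter threshold (adjusted p under 0.01) included. They were AREG in 3 comparisons, HBEGF with JQ1 in VHL- cells, and HBEGF and TGFA between the lines under DMSO. The cause of the changes below was not tested, beyond the fewer libraries or stricter threshold that some settings use by construction.

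For JQ1 in VHL+ cells 6589 genes were called in all, 4160 without replicate 3 of JQ1 in each line and 3989 at an adjusted p under 0.01. The 4 rises among the 9 genes became 1 with total counts alone or no filter, 0 in those 2 last settings, and 1 to 4 when 1 library was left out. For JQ1 in VHL- cells 6649 genes were called, and 3957 and 4039 in those settings. The 2 rises became 1 with total counts alone, no filter, only the compared groups, replicate 3 of JQ1 or replicate 1 of DMSO dropped, or the stricter threshold, and the 2 falls became 0, 1 and 0 in the last 3 settings named, with 1 to 2 and 0 to 3 when 1 library was left out. Between the lines under DMSO 6357 genes were called and 4137 at the stricter threshold. The 2 higher genes became 1 there or with replicate 1 of DMSO dropped, and 1 to 3 higher and 2 to 3 lower were called with 1 library left out. ERBB2 joined the higher genes with DESeq2, limma-voom, median-of-ratios scaling, a filter of 1 CPM or total counts alone. ERBB3 left the lower genes with only the compared groups, with replicate 1 of DMSO dropped, or at the stricter threshold. Under JQ1 8479 genes were called, 4814 with replicate 3 of JQ1 dropped and 5483 at the stricter threshold. The 1 higher gene became 0 in both and 0 to 1 with 1 library left out, and the 2 lower became 1 in both and with total counts alone, 4 with DESeq2, limma-voom or only the compared groups, and 1 to 4 with 1 library left out. For the difference between JQ1 effects 250 genes were called, 1336 with no filter, 1188 with DESeq2, 25 with replicate 3 of JQ1 dropped, 47 at the stricter threshold and 43 to 3510 with 1 library left out, the highest without replicate 1 of VHL- JQ1. Of the 9 genes 0 to 2 were then called lower.

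Values that changed sign were not called. JQ1 in VHL- cells gave ERBB2 -0.04 with no filter, and TGFA 0.02 with a filter of 1 CPM and 0.01 with replicate 3 of JQ1 dropped. In VHL+ cells ERRFI1 was 0.04 with limma-voom. Between the lines under DMSO EGFR was -0.01 with the 1 CPM filter or without mitochondrial and structural RNA genes, -0.02 with only the compared groups and -0.03 with replicate 1 of DMSO dropped, where MET was -0.08. Under JQ1 ERBB2 was 0.14 with total counts alone and 0.04 with the 1 CPM filter. Leaving out 1 library gave log2 ranges of -0.06 to 0.09 (ERBB2) and -0.16 to 0.09 (TGFA) for JQ1 in VHL- cells, -0.33 to 0.40 (ERRFI1) and -0.13 to 0.16 (MET) in VHL+ cells, -0.05 to 0.11 (EGFR) and -0.07 to 0.21 (MET) under DMSO, -0.10 to 0.05 (ERBB2) under JQ1, and -0.21 to 1.36 for the AREG difference.

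Total counts alone moved the median of all genes by log2 -0.11 for JQ1 in VHL+ cells, 0.16 between the lines under JQ1 and 0.1 for the difference. The share of calls that were higher went from 48.1% to 34.1%, from 48.1% to 62.1% and from 41.2% to 56.3%. With first DMSO replicates dropped the last was 52.2%, and without replicate 3 of VHL- DMSO 29%. Same-numbered libraries of the 2 lines under JQ1 deviated together. In VHL- cells the same-numbered DMSO and JQ1 libraries correlated at 0.093 to 0.388 and the others at -0.391 to 0.075. Whether numbers pair them was not tested with a block in a fit of those groups alone. In each remaining pair of groups the lowest same-numbered correlation was 0.014 or less. For the JQ1 groups alone the replicate block, added after seeing the data, called 9594 genes, 1 of the 9 higher and 4 lower (AREG, HBEGF, EGFR and MET). EGFR and MET were also called in that fit without the block, and it changed no other call of the 9 genes. With the replicate block in all 12 libraries 6423, 6612, 6191, 8406 and 272 genes were called in the 5 comparisons, and the counts among the 9 genes were 4 and 1, 2 and 2, 2 and 3, 1 and 2, and 0 and 0 (higher and lower), as without it. Depth limits ERBB3, AREG and EREG, which held at most 44, 302 and 4 counts in a library.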
